A study of Homo sapiens with 12 samples.

Results

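The genes that carry a cell through G2 and mitosis were followed in RNA and in ribosome footprints of MDA-MB-231, an established line from a human triple-negative breast cancer, after a short exposure to AZD0095. The set was chosen by symbol and holds 55 names: mitotic cyclins and kinases, kinesins, and genes of the centromere, spindle checkpoint, anaphase, cytokinesis and chromosome condensation. Of these, 52 are among the 6777 genes tested. CENPA, HMMR and SMC4 are not listed in the tables, which hold only genes above 1 FPKM in all 12 libraries, so nothing is reported for them. The set was drawn up with the RNA direction of CDC25C, AURKA, PLK1 and BIRC5 already known, so their direction here is a description and not a new finding.

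All 12 libraries come from this line, with no genetic change named in the labels. The treated group received 10 nM AZD0095, an inhibitor of the lactate transporter MCT4, for 4 h, and the control group received DMSO, its solvent. Each group has 3 RNA-seq libraries and 3 ribosome profiling libraries, numbered as replicates 1 to 3. Nothing in the labels says that the replicates were separate cultures, so the p-values measure only how far these libraries spread, and that spread may be technical. Of the line markers in RNA, VIM stood at 2492 to 2799 FPKM, CD44 at 739 to 844 and AXL at 358 to 440.1. ESR1 and CDH1 are not listed, which can follow from a low value in any library, footprints included. EPCAM stood at 9.33 to 12.5 and ERBB2 at 15.4 to 21.4. The keratins KRT8, KRT18 and KRT19 were also present, at 223 to 253, 213 to 233 and 125 to 166. FPKM is a count of fragments scaled to the length of the gene and to the mapped fragments of the library. Fold changes are differences of log2(FPKM + 1), AZD0095 minus DMSO, on which a change in a low gene is understated. In bulk RNA, fewer cells in G2 or mitosis and less of these mRNAs per cell cannot be told apart.

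As background, entry into mitosis is driven by CDK1 bound to cyclin A or cyclin B. The kinases WEE1 and PKMYT1 hold CDK1 inactive, and the CDC25 phosphatases release it. PLK1 and the Aurora kinases then act on centrosomes, kinetochores and the spindle, the spindle checkpoint delays anaphase until chromosomes are attached, and the anaphase-promoting complex with CDC20 marks cyclin B and securin for destruction. Most of these genes are transcribed late in the cycle. The repressive DREAM complex and the activating complex of MuvB, B-MYB and FOXM1 read a short promoter element, the cell cycle genes homology region (CHR), often with CCAAT boxes upstream of it.

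That element could be looked for in 44 of the 52 genes, those with a RefSeq promoter window (GRCh38.p14, 250 bases before to 50 after a start). AURKA, BIRC5, BUB3, FOXM1, RACGAP1, TPX2, TTK and UBE2C have no entry. The letters TTTGAA, on either strand, stood in the windows of 31 of the 44 genes, or 70.5%, against 13.2% of 5612 other tested genes and 15.2% of all 35116 windows. In 18 of the 44 genes, or 40.9%, a copy began within 40 bases before the start, against 2.0% of the other tested genes. The rarer form TTCGAA was in 3 genes (6.82%, against 2.44%), and the variant TTTAAA in 15 (34.1%, against 10.1%). CCAAT was in 34 (77.3%, against 44.0%). A gene with several windows was counted if any of them held the letters. The CHR-like letters cannot overlap each other, though they can share 1 base with CCAAT. A match describes letters and is not a measured binding site.

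The 100 bases before the start of 8 genes are given in the gene's own direction, with the CHR-like letters nearest the start in capitals. CDC25C, CDC25B, PLK1, CKS2 and CENPE passed the RNA test. CCNB1 and CDCA8 came next to it, and NCAPG, chosen after its values were seen, had higher footprints in each treated library than in any control library.
CDC25C: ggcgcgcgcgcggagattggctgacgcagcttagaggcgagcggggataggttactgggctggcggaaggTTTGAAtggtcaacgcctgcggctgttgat
CDC25B: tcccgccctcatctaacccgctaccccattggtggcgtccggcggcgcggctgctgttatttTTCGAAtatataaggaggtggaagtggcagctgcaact
PLK1: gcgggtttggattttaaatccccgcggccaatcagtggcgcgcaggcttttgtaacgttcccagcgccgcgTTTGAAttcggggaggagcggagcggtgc
CKS2: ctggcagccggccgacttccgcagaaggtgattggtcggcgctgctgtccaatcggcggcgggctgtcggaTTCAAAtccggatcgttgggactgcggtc
CENPE: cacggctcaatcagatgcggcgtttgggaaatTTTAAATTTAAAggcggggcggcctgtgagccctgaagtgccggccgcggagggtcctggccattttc
CCNB1: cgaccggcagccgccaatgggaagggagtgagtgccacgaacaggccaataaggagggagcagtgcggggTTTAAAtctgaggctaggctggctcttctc
CDCA8: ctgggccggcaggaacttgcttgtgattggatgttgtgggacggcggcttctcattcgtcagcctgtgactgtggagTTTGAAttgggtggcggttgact
NCAPG: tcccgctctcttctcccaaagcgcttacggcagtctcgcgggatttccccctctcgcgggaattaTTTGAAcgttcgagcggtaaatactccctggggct

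In GRCh38.p14 these stretches lie at chr5:138331805-138331904 (CDC25C, minus strand), chr20:3796210-3796309 (CDC25B, plus), chr16:23678789-23678888 (PLK1, plus) and chr9:89311095-89311194 (CKS2, plus). The other 4 lie at chr4:103198344-103198443 (CENPE, minus), chr5:69167050-69167149 (CCNB1, plus), chr1:37692416-37692515 (CDCA8, plus) and chr4:17810879-17810978 (NCAPG, plus). Those of CDC25C and CDC25B fall inside the annotated gene, because the gene record also holds starts farther upstream. The capitals of CDC25C and PLK1 begin 30 and 29 bases before the start, and in CKS2 the element runs on the other strand, 29 bases before it. CDC25C has a further annotated start, from which the same letters begin 43 bases downstream, so its position depends on the start used. Over the 31 genes with TTTGAA the median RNA log2 fold change was -0.16, with 3 genes called, and over the 13 without it -0.14, with 2 called, where 8.04% of all genes were called in RNA. Those 2 are CDC25B and CENPE, which hold TTCGAA and TTTAAA, so the split is not one of genes with and without a CHR-like element. Only 4 of the 44 genes held none of the 3 forms.

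In RNA, 1 of the 52 genes rose, 6 fell and 45 did not pass (limma, Benjamini-Hochberg adjusted p under 0.05). Over all 6777 genes 8.04% were called, 5.03% higher and 3.01% lower. CDC25C rose, and AURKA, CENPE, BIRC5, CDC25B, PLK1 and CKS2 fell, each by less than 2-fold. For CDC25C, AURKA, PLK1 and BIRC5 the RNA direction was known when the set was drawn up. The count called is therefore not independent of that choice, and CENPE, CDC25B and CKS2 are the other calls. Over the whole set, called genes included, 47 of 52 genes had a log2 fold change under 0, against 47.7% of all genes. The median was -0.16, against 0.01 for all genes. At an unadjusted p under 0.05, 20 genes were lower (10.0% of all genes) and 1 was higher (14.1%). The 3 treated libraries lay below all 3 controls in 14 genes, where 11.5% of all genes did so, and above them in CDC25C alone, where 17.7% did so. The 47, the 20 and the 14 genes each include the 6 called lower, AURKA, PLK1 and BIRC5 among them. These counts are therefore not independent of the choice of the set either.

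**Figure D1:**
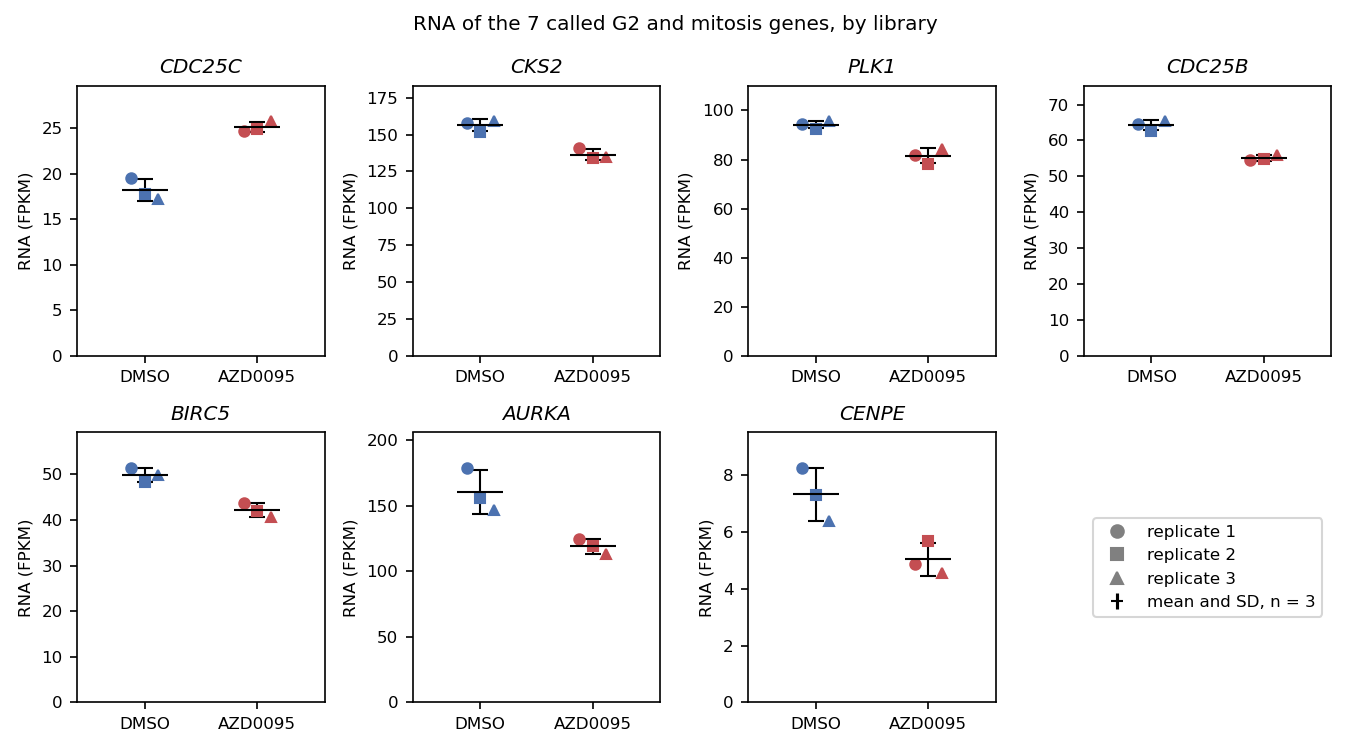
RNA level (FPKM, linear axis from 0) of the 7 called genes in each library; symbols mark the replicate, bars the mean and SD of 3 libraries. For CDC25C the treated libraries sit at 24.7 to 25.7, above all controls; for the other 6 genes they sit below all controls.

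Replicate 1 stood apart in both groups. Its RNA was the highest of the 3 DMSO libraries for 40 of the 52 genes (46.4% of all genes) and the highest of the 3 within both groups for 34 (33.9%). Relative to the DMSO mean, the median over the 52 genes was 0.11 in DMSO replicate 1 and -0.03 and -0.07 in replicates 2 and 3. In AZD0095 it was -0.01 in replicate 1 and -0.19 and -0.24 in the other replicates. The set made up 1.05% of all listed RNA FPKM in DMSO replicate 1, 0.951% and 0.928% in the other controls, 0.955% in AZD0095 replicate 1, and 0.844% and 0.836% in the other treated libraries. AZD0095 replicate 1 therefore lay among the controls, while it was below DMSO replicate 1 for 43 of 52 genes (43.2% of all genes).

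**Figure D2:**
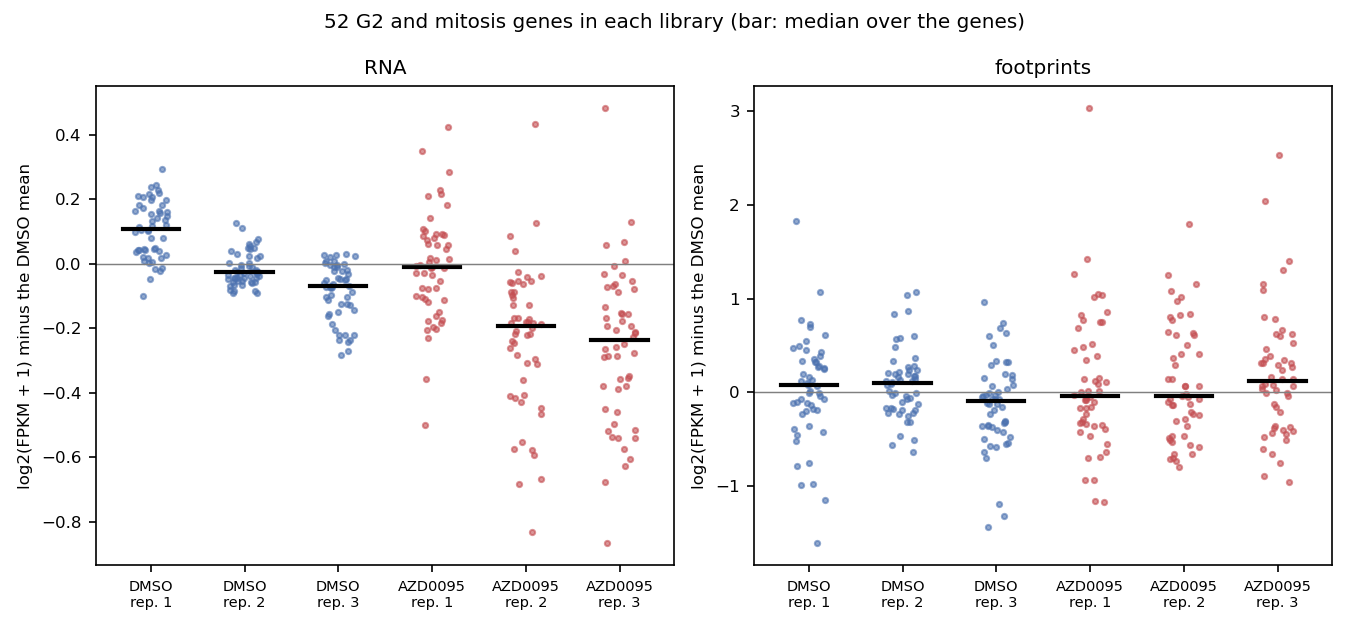
Difference of each of the 52 genes from its DMSO mean, on log2(FPKM + 1), in each RNA library (left) and footprint library (right); points are genes and bars their medians. In RNA the medians lie between 0.11 in DMSO replicate 1 and -0.24 in AZD0095 replicate 3, with AZD0095 replicate 1 near 0; the footprint axis is wider and its medians show no such order.

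With replicates 2 and 3 alone, a fit chosen after seeing the data, 22 genes were called lower and 1 higher (10.9% and 9.68% of all genes). These include all 7 genes called with every library. Of the 23, 20 had the same sign in the replicate 1 pair, where the median over the set was -0.11. In that pair 43 of all 52 genes lay under 0, called or not, so the match in sign is not particular to the 23. TTK had a log2 fold change of -0.77 in replicates 2 and 3 and -0.16 in the replicate 1 pair. For CKAP2 these were -0.57 and -0.22, for NDC80 -0.52 and -0.21, for KIF11 -0.51 and -0.21, and for TOP2A -0.44 and -0.15. AURKA and CENPE showed the reverse order, with -0.38 and -0.36 in replicates 2 and 3 and -0.52 and -0.66 in the replicate 1 pair. NUF2 and KIF18A changed sign, at -0.34 and -0.39 against 0.23 and 0.09. UBE2S also changed sign, at -0.24 against 0.06. Whether the replicates differ in day, culture or cell cycle makeup was not tested.

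The number called also turned on single libraries. It was 22 without AZD0095 replicate 1, with 1 higher and 21 lower (7.51% and 8.9% of all genes), and 2 without DMSO replicate 1 (4.13% of all genes). It was also 2 without DMSO replicate 3 (3.67%), and 1, CDC25C, without AZD0095 replicate 3 (3.16%), so these counts are near or below the share of all genes called. Without DMSO replicate 2 or without AZD0095 replicate 2 no gene of the set was called by limma (1.48% and 1.71% of all genes), while 13 and 9 stood at an unadjusted p under 0.05 (17.1% and 17.8%). The median log2 fold change stayed between -0.21 and -0.12 in all 6 cases. Without limma's variance trend 3 genes were called, CDC25C higher and AURKA and CENPE lower (4.96% and 2.85% of all genes).

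**Figure D3:**
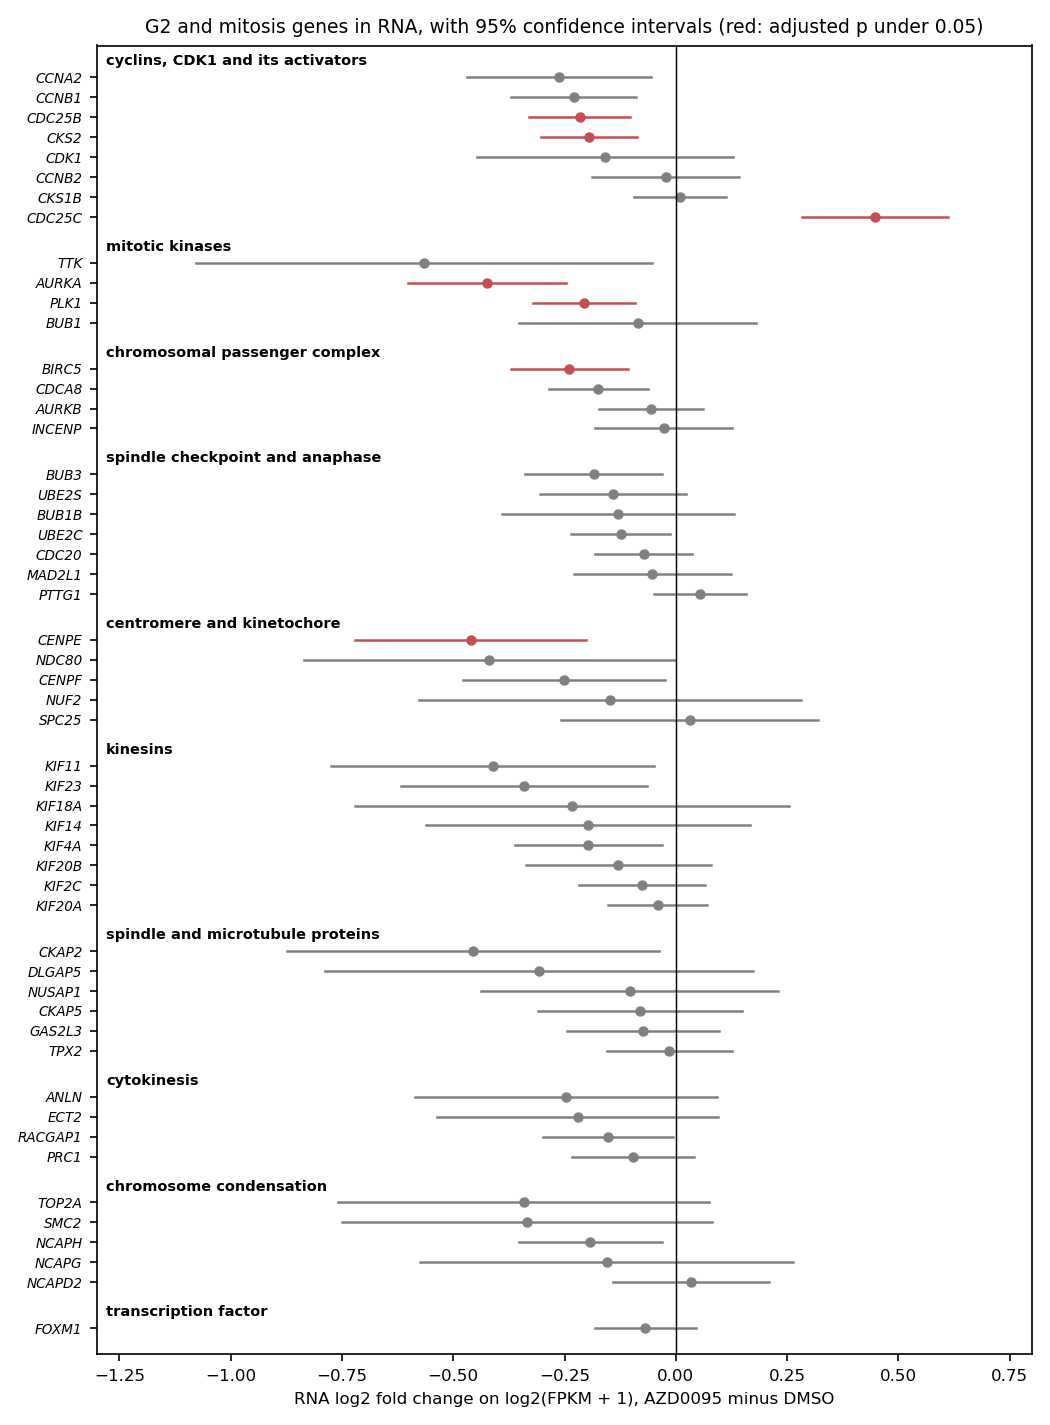
RNA log2 fold change, AZD0095 minus DMSO, with its 95% confidence interval from limma for each of the 52 genes, grouped by role; red marks an adjusted p under 0.05. Of the 52 points 47 lie left of 0, and CDC25C is the red point on the right.

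Among the cyclins, CDK1 and its activators, 1 of 8 genes rose, 2 fell and 5 did not pass. The rise is that of CDC25C, whose direction was known when the set was drawn up. In this and the following role groups, counts called stand against 8.04% of all genes. CDC25C (ENSG00000158402, chromosome 5) encodes a phosphatase that activates CDK1 at the onset of mitosis. It stood at 19.5, 17.8 and 17.2 FPKM in DMSO replicates 1 to 3 and at 24.7, 24.9 and 25.7 in AZD0095. The groups did not overlap, and the log2 fold change was 0.45 ± 0.07 (SE, n = 3 libraries a group; adjusted p = 0.010 by limma). The related phosphatase gene CDC25B (ENSG00000101224, chromosome 20), whose product acts earlier, at the centrosome, went the other way. It stood at 64.7, 62.8 and 65.4 FPKM in DMSO and 54.6, 54.9 and 56.0 in AZD0095, a log2 fold change of -0.22 ± 0.05 (adjusted p = 0.036 by limma). CDC25A, the third phosphatase of the family and not in the set, also fell, from 28.2, 25.6 and 28.2 FPKM to 21.7, 20.7 and 20.6 (log2 fold change -0.37, adjusted p = 0.018 by limma). The 3 CDC25 genes were therefore split, with CDC25C up and both others down.

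CKS2 (ENSG00000123975, chromosome 9), a small protein that binds CDK1, stood at 158, 151 and 159 FPKM in DMSO and 141, 134 and 134 in AZD0095, with a log2 fold change of -0.19 ± 0.05 (adjusted p = 0.042 by limma). CKS1B, its close paralog, has the highest RNA level of the set by the mean over both groups, though in DMSO alone CCNB1 was higher, at 293 against 273 FPKM. CKS1B stood at 270.4, 277 and 272 in DMSO and 275, 265 and 284 in AZD0095, so its groups overlapped. How the counting treated reads common to both paralogs is not given in the sources used here, and neither level is certain. CCNB1, the gene of cyclin B1, lay at 280.0 to 318 FPKM in DMSO and 240.0 to 259 in AZD0095 without overlap, and its log2 fold change of -0.23 missed the threshold (adjusted p = 0.059 by limma). CCNA2 had -0.26 (adjusted p = 0.12 by limma) and CDK1 itself -0.16, while CCNB2 had -0.02.

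Of the 4 mitotic kinases, 2 fell and 2 did not pass. The 2 that fell are AURKA and PLK1, whose direction was known when the set was drawn up. AURKA (ENSG00000087586, chromosome 20) encodes Aurora A, which matures centrosomes and builds the spindle poles. It stood at 179, 156 and 147 FPKM in DMSO and 124, 119.5 and 113 in AZD0095. All treated libraries were lower than all controls, by a log2 fold change of -0.42 ± 0.08 (adjusted p = 0.016 by limma). PLK1 (ENSG00000166851, chromosome 16), the polo-like kinase, stood at 94.6, 92.6 and 95.6 in DMSO and 82.0, 78.4 and 84.4 in AZD0095 (log2 fold change -0.21 ± 0.05, adjusted p = 0.044 by limma). TTK, a checkpoint kinase, had the largest RNA difference of the set, -0.57, yet an adjusted p of 0.17 by limma. It stood at 20.5, 19.0 and 15.4 FPKM in DMSO and at 18.2, 9.77 and 9.52 in AZD0095, so replicate 1 overlapped the controls and the other treated libraries did not. BUB1 had -0.09.

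The chromosomal passenger complex corrects attachments of chromosomes to the spindle through its kinase Aurora B, and of its 4 subunits 1 fell. That subunit is BIRC5, whose direction was known when the set was drawn up. BIRC5 (ENSG00000089685, chromosome 17), survivin, stood at 51.5, 48.3 and 49.9 FPKM in DMSO and 43.7, 41.9 and 40.7 in AZD0095 (log2 fold change -0.24 ± 0.06, adjusted p = 0.041 by limma). CDCA8, borealin, was tight in both groups, 71.5 to 71.9 against 62.0 to 65.2 FPKM, with -0.17 and an adjusted p of 0.067 by limma. AURKB, the kinase, had -0.06 and INCENP, its scaffold, -0.03, and both overlapped between groups.

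None of the 7 spindle checkpoint and anaphase genes passed. They are the checkpoint proteins BUB1B, BUB3 and MAD2L1, the activator CDC20, the ubiquitin-conjugating enzymes UBE2C and UBE2S of the anaphase-promoting complex, and PTTG1, securin. Their log2 fold changes ran from -0.18 in BUB3 to 0.05 in PTTG1. At an unadjusted p under 0.05, BUB3 and UBE2C were lower. CDC20, at 236 to 244 FPKM in DMSO and 220.0 to 239 in AZD0095, had -0.07.

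Of the 5 centromere and kinetochore genes 1 fell. CENPE (ENSG00000138778, chromosome 4), a kinetochore motor that moves chromosomes to the equator, has the lowest RNA level of the set by the mean over both groups. In DMSO alone KIF14 was lower, at 6.75 FPKM against 7.33. CENPE stood at 8.27, 7.30 and 6.40 FPKM in DMSO and 4.86, 5.70 and 4.57 in AZD0095. The groups did not overlap, and the log2 fold change was -0.46 ± 0.11 (adjusted p = 0.044 by limma). CENPF had -0.25, and of the NDC80 complex, which binds microtubules, NDC80 had -0.42 with an adjusted p of 0.20 by limma, NUF2 had -0.15 and SPC25 0.03. SPC24, the fourth subunit of that complex and outside the set, rose from 12.3, 13.8 and 11.7 to 16.1, 15.9 and 17.0 FPKM (log2 fold change 0.35, adjusted p = 0.037 by limma).

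All 8 kinesins, motors that slide and organise spindle microtubules, had log2 fold changes under 0, from -0.41 in KIF11 to -0.04 in KIF20A, and none passed. KIF23 had -0.34, KIF4A -0.20 and KIF20B -0.13. The 6 spindle and microtubule genes behaved likewise, with none passing and a range from -0.46 in CKAP2 to -0.01 in TPX2, the activator of Aurora A. By RNA p, DLGAP5 (-0.31) and GAS2L3 (-0.07) came next after CKAP2. TPX2, with the largest RNA p of the 6, was one of the most abundant genes, at 213 to 238 FPKM in DMSO and 213 to 234 in AZD0095. The 4 cytokinesis genes ran from -0.25 in ANLN to -0.10 in PRC1. RACGAP1 had -0.15 and ECT2 -0.22, and none passed.

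None of the 5 condensation genes passed. TOP2A, the topoisomerase that untangles sister chromatids, had -0.34, and it stood at 121, 102 and 88.0 FPKM in DMSO and 109.6, 68.6 and 70.4 in AZD0095. Of the condensin I genes, SMC2 had -0.33, NCAPH -0.19, NCAPG -0.16 and NCAPD2 0.03. FOXM1, a transcription factor of G2 genes, stood at 73.2, 73.9 and 76.0 FPKM in DMSO and 68.8, 71.1 and 72.6 in AZD0095. Its groups did not overlap, and its log2 fold change of -0.07 did not pass (adjusted p = 0.45 by limma).

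Other genes of mitosis had a median nearer 0, though the difference from the set was not tested. Of 112 sought in 7 lists, 92 are listed. Among them 1 rose and 3 fell, where 8.04% of all genes were called. The median was -0.06, and 62 genes, or 67.4%, lay under 0, against 47.7% of all genes. Besides SPC24 and CDC25A, these were STAG1, a cohesin subunit, and FAM83D, a spindle protein. STAG1 fell from 11.3, 11.2 and 9.75 FPKM to 8.21, 7.21 and 6.07 (log2 fold change -0.53, adjusted p = 0.029 by limma), and FAM83D from 61.3, 62.6 and 59.9 to 51.1, 50.9 and 54.0 (-0.23, adjusted p = 0.036 by limma). By list, none of 14 anaphase-promoting complex genes, none of 5 further condensation genes and none of 6 DREAM and MuvB genes passed. Of 9 genes that regulate CDK1 or its partners 1 fell, of 11 cohesin and separase genes 1 fell, of 22 further kinetochore genes 1 rose and of 25 further spindle and cytokinesis genes 1 fell. In the 3 lists with none called, 4, 1 and 2 genes stood at an unadjusted p under 0.05, as did 24.2% of all genes. All 4 calls were lost when any RNA library other than AZD0095 replicate 1 was left out, with adjusted p-values by limma of up to 0.12 for STAG1, 0.086 for CDC25A, 0.13 for SPC24 and 0.16 for FAM83D.

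Ribosome footprints showed no called change. None of the 52 genes and none of the 6777 passed by limma (0.0%), and at an unadjusted p under 0.05 there were 4 higher and 1 lower in the set (4.1% and 3.72% of all genes, 7.82% in either direction). The median footprint log2 fold change was 0.03, against 0.04 for all genes, and 25 of 52 genes lay under 0, against 46.9%. Of the 47 genes lower in RNA, 23 were lower and 24 higher in footprints. The 7 genes called in RNA had footprint log2 fold changes of -0.20 (CDC25C), -0.44 (CDC25B), 0.14 (CKS2), -0.14 (AURKA), -0.23 (PLK1), -0.29 (BIRC5) and 0.15 (CENPE).

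The footprint libraries were shallow and uneven. Where reads were counted whole, FPKM values are whole multiples of the value of 1 read, and these steps gave 123859, 107087 and 192324 reads for DMSO replicates 1 to 3. For AZD0095 they gave 141122, 217366 and 501351, and the mean of these is 2.03 times that of DMSO, or 1.27 times without AZD0095 replicate 3. These depths are inferred and not counted, and the inference took gene lengths to be 1 base short of a multiple of 3. Read numbers below rest on the same inference. Of the set, 20 genes had under 5 reads per kilobase in at least 1 DMSO library and 13 in at least 1 AZD0095 library. Whole reads could be read off for 8 genes. PLK1 had 24, 32 and 32 reads in DMSO and 27, 43 and 78 in AZD0095, and CDC20 had 82, 57 and 123 against 83, 146 and 325. CKS2 had 34, 20 and 30 against 37, 42 and 105, while KIF14 had 1, 5 and 6 against 5, 13 and 16. The median SD of a gene of the set within DMSO was 0.42 on the log2 scale in footprints, against 0.10 in RNA. For RNA the depth is unknown.

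**Figure D4:**
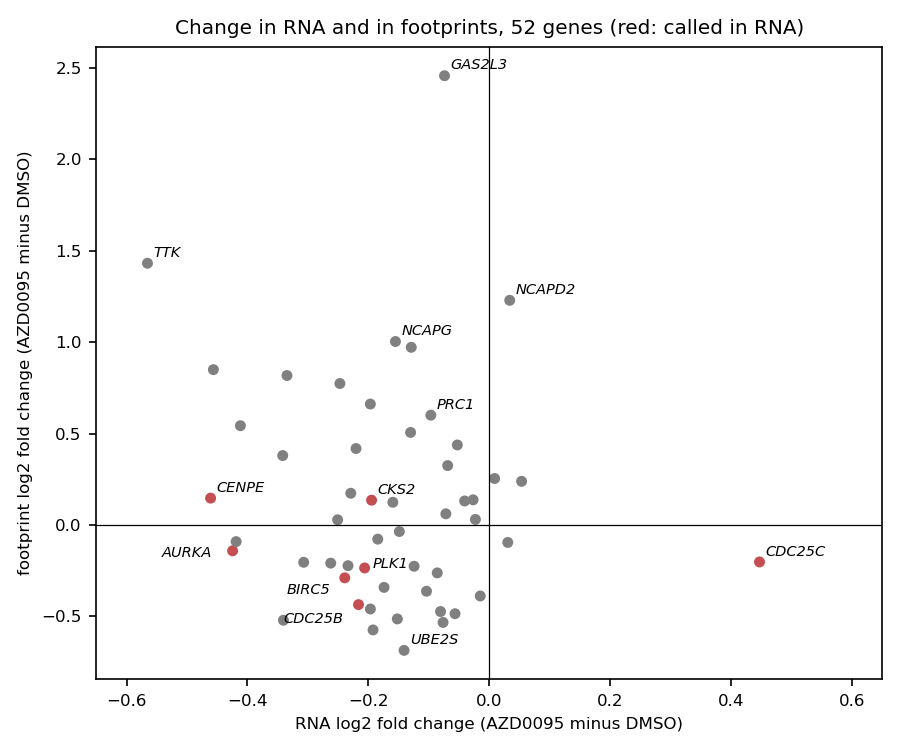
Log2 fold change in RNA (x axis) and in footprints (y axis, wider scale) for the 52 genes, AZD0095 minus DMSO on log2(FPKM + 1); red marks genes called in RNA. GAS2L3 stands at the top with a footprint difference of 2.46 and no RNA call, and the red points lie between -0.44 and 0.15 in footprints.

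The 5 genes at an unadjusted p under 0.05 in footprints were GAS2L3, NCAPD2, NCAPG, PRC1 and UBE2S, named here after their values were seen. GAS2L3, which links actin and microtubules in late mitosis, stood at 6.70, 5.18 and 2.88 footprint FPKM in DMSO and 45.7, 18.8 and 32.0 in AZD0095, with RNA at 16.1 to 19.1 in every library. The groups did not overlap, and the footprint log2 fold change was 2.46 (adjusted p = 0.49 by limma). Its DMSO values rest on 0.830, 0.555 and 0.555 reads per kilobase and its AZD0095 values on 6.46, 4.10 and 16.1. Among the condensin I genes, NCAPD2 stood at 26.7, 53.7 and 71.4 in DMSO and 97.0, 113 and 125 in AZD0095 (1.23, adjusted p = 0.63 by limma). NCAPG stood at 79.5, 123 and 55.8 against 171, 143 and 184 (1.00, adjusted p = 0.63 by limma). For NCAPH the values ran the other way, with -0.57, and SMC2 had 0.82.

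PRC1, which bundles microtubules of the central spindle, stood at 187, 169 and 156 footprint FPKM in DMSO and 275, 243 and 259 in AZD0095 (0.60, adjusted p = 0.63 by limma). UBE2S stood at 955, 1099 and 955 against 724, 615 and 540.3 (-0.69, adjusted p = 0.60 by limma). UBE2S rests on over 100 reads per kilobase in each library, from 102 to 271, so it is among the deepest of the set. The 3 treated footprint libraries lay above all controls in 9 genes (7.19% of all genes did so) and below them in 2, CDCA8 and UBE2S (5.77%). Depth differed between libraries. AZD0095 replicate 1 has fewer reads than DMSO replicate 3, while AZD0095 replicates 2 and 3 have more than every DMSO library. The part of depth in these values was not tested.

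Translational efficiency, the ratio of footprints to RNA, was compared through the assay by treatment interaction in a fit of all 12 libraries. None of the 52 genes and none of all genes passed by limma (0.0%). At an unadjusted p under 0.05 (8.53% of all genes), 8 genes of the set were higher (4.68%) and 1, UBE2S, was lower (3.85%). The 8 were GAS2L3, TTK, SMC2, NCAPD2, NCAPG, CKAP2, ANLN and PRC1. GAS2L3 had the smallest p, with a log2 ratio change of 2.53 (adjusted p = 0.23 by limma). In 7 of the 8, all but NCAPD2, an RNA difference under 0 met a footprint difference above 0. Among these are TTK with a log2 ratio change of 2.00 and CKAP2 with 1.31. The 8 were picked by a rise of footprints relative to RNA, and 47 of the 52 genes had RNA differences under 0. Opposite signs in the 8 are therefore largely set by that choice. DMSO replicate 1 holds 0.385 reads per kilobase of TTK, which gives 3.10 FPKM, against 21.9 and 20.0 FPKM in the other controls. The median log2 ratio change of the set was 0.17, against 0.03 for all genes, and 18 of 52 genes lay under 0, against 47.6%.

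Within DMSO the genes differed widely in how many footprints they had for their RNA. The median ratio of footprint to RNA FPKM over the set was 1.38, where that of all genes was 2.43. It ran from 0.273 in GAS2L3 and 0.301 in CKS1B to 4.90 in CKS2, 5.36 in AURKB, 5.71 in BIRC5 and 9.20 in UBE2S, genes named after their values were seen. The CKS paralogs lay near opposite ends, although CKS1B had the higher RNA level. CKS1B stood at 139, 84.5 and 23.5 footprint FPKM and CKS2 at 1020.5, 694 and 579.9. In DMSO CKS1B rests on 17.2, 9.05 and 4.52 reads per kilobase and GAS2L3 on 0.830, 0.555 and 0.555, so the low end is uncertain. CKS2 rests on 126, 74.3 and 112. Whether reads common to both paralogs affect these ratios was not tested. The scales of FPKM in each assay are set by different libraries, so the order of genes and not the ratio itself is comparable.

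**Figure D5:**
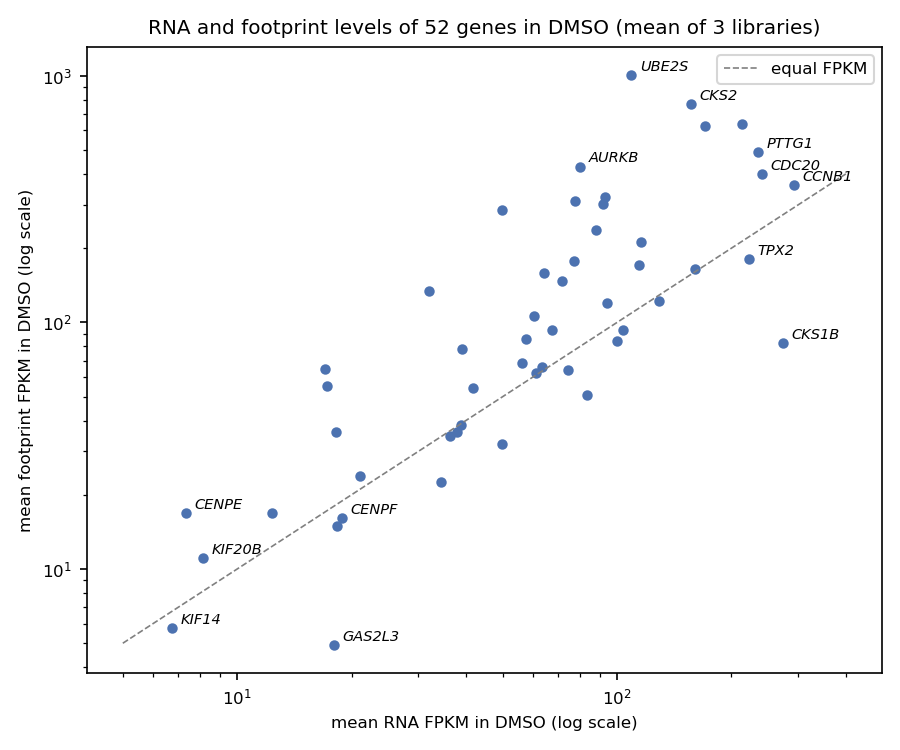
Mean RNA FPKM (x axis) and mean footprint FPKM (y axis) of the 52 genes in DMSO, 3 libraries each, both on log scales; the dashed line marks equal FPKM. UBE2S lies farthest above the line, and GAS2L3 and CKS1B farthest below it.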

How the data were processed

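RNA and ribosome footprints were measured by sequencing in 3 DMSO and 3 AZD0095 libraries each. The authors deposited FPKM values per gene and library. The build was hg38 and the tools STAR, Bowtie2 and fastp, per the submitters' processing notes. Tool versions, the read counter and how FPKM was computed are not stated in the sources used here. Titles say total RNA and the molecule field says polyadenylated RNA, which was not settled. Of 6785 entries, 8 repeats were removed.

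Values were taken as log2(FPKM + 1), and a filter at a mean of 1 FPKM removed 0 genes. Each assay was tested with limma 3.58.1 (R 4.3.3), two-sided with a variance trend, and translational efficiency as the assay by treatment interaction, which takes 1 spread per gene over both assays. P-values were adjusted over all 6777 genes. The test and the read recovery (tolerance 0.01 read, 1123 genes) were tested on simulated data. Alternatives were the pseudocount, the filter, centring, the trend, the replicate number as a term and each library left out.

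The members and lists were chosen with earlier results of these data known. Library values are given for each called gene, for CDC25C, AURKA, PLK1 and BIRC5, and for the genes with the highest and lowest mean RNA. Other genes serve as examples, most of them by smallest RNA p, or are marked as chosen later. TPX2 is an example outside that order. Positions come from RefSeq, matched by symbol for 52 of 52 genes.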

Additional observations from a re-analysis of the deposited data

How the results depend on the processing

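Of the 52 genes 7 were called in RNA, and this count moved with the fit. With a replicate block it was 27 (23.9% of all genes were called), without the variance trend 3 (CDC25C, AURKA and CENPE; 7.81%), with replicate 1 against the others as a term 26 (24.5%), and with replicates 2 and 3 only, an alternative chosen after seeing the data, 23 (20.6%). In the fit of all libraries 8.04% were called. Leaving out each library in turn gave 0 to 22. A pseudocount of 0.1 and a filter at a mean of 5 FPKM both left 7, and median centring gave 8. Over all genes 545 were called, 1622 with the block and 100 to 1112 with a library left out. CDC25C lost its call without replicate 2 of either group, with an adjusted p of 0.00038 to 0.065 by limma over 13 alternatives, and AURKA without either of these or AZD0095 replicate 3 (0.00014 to 0.077). CENPE lost its call without each library but AZD0095 replicate 1 (0.0079 to 0.15); CDC25B (0.0055 to 0.14), CKS2 (0.0047 to 0.16), PLK1 (0.0067 to 0.17) and BIRC5 (0.0042 to 0.14) did so too and also without the trend. The cause was not tested.

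Whether the replicate numbers pair the samples is not settled. Deviations of same-numbered RNA libraries from their group means correlated at 0.62, 0.09 and 0.49 for replicates 1 to 3. For replicates 1 and 3 these were the highest correlations, while DMSO replicate 2 correlated better with AZD0095 replicate 3 (0.23). The main fit holds no replicate term, and the counts with such a term are those given above. In footprints the deviations of same-numbered libraries correlated at 0.01, -0.02 and 0.09. No gene of the set was called in footprints or in translational efficiency by limma in any setting. At an unadjusted p under 0.05 stood 2 to 7 and 7 to 14 genes over the settings. In the fit of all libraries these were 5 and 9, where 7.82% and 8.53% of all genes did so. The shares of all genes in the other settings are not given here.

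With a library left out, the RNA log2 fold change of CKS1B ran from -0.015 to 0.035 and that of NCAPD2 from -0.015 to 0.107. The footprint log2 fold change ran from -0.618 to 0.071 for CDC25C, from -0.043 to 0.364 for CKS2, from -0.293 to 0.094 for AURKA, from -0.411 to 0.008 for PLK1 and from -0.202 to 0.455 for CENPE. These small differences have no settled sign. The inferred depth of the footprint libraries ran from 107087 to 501351 reads, and how far depth sets these results was not tested.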
